A study of Mus musculus with 6 samples.

Results

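Pdzrn3, Pdzrn4, the 5 synaptotagmin-like genes Sytl1 to Sytl5 and the small GTPase genes Rab27a and Rab27b were followed in the anterior palate of Meis2 mutant mouse embryos. These 9 genes, of 24421 listed, are 2 gene families and their Rab partners, selected on the deposited fold changes of Pdzrn4 and Sytl5, which were strongly lower in the mutant. The differences of the 9 genes between the genotypes are therefore given as a description. RNA came from Wnt1Cre;Meis2f/f embryos (3 libraries, "mutant") and from wildtype embryos (3 libraries, "WT"), all on the C57BL/6 background at stage E12.5. Wnt1Cre is active in neural crest cells, which form most of the palatal mesenchyme. Cells of other origin in the tissue, such as muscle, vessel and blood cells, would keep Meis2. The epithelium had been taken off with Dispase II, and the RNA was amplified before library preparation. The WT group is not described as carrying Wnt1Cre, so an effect of the Cre itself cannot be told apart from that of losing Meis2. Which part of Meis2 is deleted, and how many embryos went into a library, the labels do not say.

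Pdzrn3 and Pdzrn4 encode relatives of the LNX proteins, with a RING finger of the kind found in ubiquitin ligases and PDZ domains that hold partner proteins. Pdzrn3 acts on the muscle kinase MuSK at the nerve-muscle synapse and on Wnt signalling through dishevelled proteins, while Pdzrn4 is less well studied. The Sytl genes encode the synaptotagmin-like proteins (Slp), which bind Rab27 on secretory vesicles with an N-terminal domain and membranes with tandem C2 domains. Rab27a and Rab27b are GTPases that bring such vesicles to the plasma membrane, as in melanocytes, secretory glands and blood cells. Meis2 encodes a TALE homeodomain protein, and the Meis proteins bind DNA at the hexamer TGACAG.

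The promoters of Pdzrn4 and Sytl5 are shown because these are the 2 genes with the strongest differences of the 9. The windows run from 250 bases before to 50 bases after the start in RefSeq (GRCm38.p6), 5′ to 3′ on the strand of the gene. Capitals mark TGACA on either strand, which reads TGTCA on the other, together with the sixth base where the match is the full hexamer TGACAG, read as CTGTCA on the other strand. Pdzrn4 has 2 annotated starts, upstream in chr15:92396560-92396859 and downstream in chr15:92596859-92597158, both on the plus strand. The Sytl5 window is chrX:9885371-9885670, also on the plus strand.
Pdzrn4 upstream start: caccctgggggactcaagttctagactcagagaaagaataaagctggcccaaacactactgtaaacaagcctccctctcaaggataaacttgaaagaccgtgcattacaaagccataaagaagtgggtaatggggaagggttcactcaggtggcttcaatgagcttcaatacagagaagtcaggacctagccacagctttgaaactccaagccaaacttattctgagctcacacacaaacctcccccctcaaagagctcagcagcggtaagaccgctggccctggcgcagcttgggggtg
Pdzrn4 downstream start: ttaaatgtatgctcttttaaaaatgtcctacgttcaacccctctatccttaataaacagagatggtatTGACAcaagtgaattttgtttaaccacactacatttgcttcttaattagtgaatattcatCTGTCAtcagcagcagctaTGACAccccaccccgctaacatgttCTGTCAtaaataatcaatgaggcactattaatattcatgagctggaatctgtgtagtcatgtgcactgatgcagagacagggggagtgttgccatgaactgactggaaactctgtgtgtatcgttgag
Sytl5: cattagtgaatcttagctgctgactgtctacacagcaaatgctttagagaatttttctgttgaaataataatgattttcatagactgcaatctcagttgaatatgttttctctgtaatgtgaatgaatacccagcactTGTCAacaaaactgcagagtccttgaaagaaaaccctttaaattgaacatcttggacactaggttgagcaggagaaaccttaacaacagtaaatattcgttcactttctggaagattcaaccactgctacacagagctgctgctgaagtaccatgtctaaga
The downstream window of Pdzrn4 held 2 copies of TGACAG, 122 and 78 bases before the start, and 4 copies of TGACA, which include these 2. The upstream window of Pdzrn4 held neither. The Sytl5 window held 1 TGACA and no TGACAG. Of 32851 RefSeq windows of the same length, 19.2% held TGACAG, 2.33% held it at least 2 times and 45.4% held TGACA. Windows were found for 7 of the 9 genes, 9 windows in all, and the only other TGACAG lay in 1 of the 2 windows of Rab27a. A match is a description of the letters, and binding was not measured.

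Values per library are normalised reads, that is, whole reads divided by the size factor of the library. The deposited tables give only means over libraries, from which the whole reads of each library could be worked out for 18872 of 20970 genes with reads, all 9 genes here among them. The libraries are called mutant A, B and C and WT A, B and C by falling size factor. The genotype of a recovered library is given by no label. It was taken from the sign of the deposited fold change of genes with a single read, found in that library. A letter does not stand for a replicate number and pairs nothing. The recovered reads summed to 3799496 to 6895575 per library. Direction rests on reading the deposited fold changes as mutant over WT, because Meis2 is lower under that reading. Meis2 had 1250, 1378 and 1218 normalised reads in mutant A, B and C, against 1526, 1549 and 1695 in WT A, B and C. It was lower in every mutant library than in every WT library, by a log2 fold change of -0.28 (SE 0.092) in the authors' deposited table of 6 libraries, where its adjusted p of 0.0743 did not pass. In a deposited table of 4 of these libraries, without mutant B and WT B, it was -0.33 with an adjusted p of 0.0213.

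Of the 9 genes, Pdzrn4 and Sytl5 were called lower and Sytl2 higher in the mutant. The other 6 were not called. A gene was called where the adjusted p of the authors' DESeq2 test was under 0.05 in the authors' deposited table of 6 libraries. Among all 14942 genes with an adjusted p, 2.9% were called, 1.16% lower and 1.75% higher. The authors' deposited table of 4 libraries called 2 of the 9 genes, both lower, against 2.3% of all genes called and 0.99% called lower. In a limma test on the recovered reads 3 were called, 2 of them lower, against 2.58% of all genes called and 1.02% called lower. Of the 9 genes, 8 had an adjusted p, and Sytl3, with too few reads, had none. The same 3 genes were those whose mutant and WT libraries did not overlap. That holds for 8.93% of 12461 genes in the lower direction and 9.17% in the higher one, among genes with recovered reads and a base mean, the mean normalised read count over all libraries, of at least 10.

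**Figure D1:**
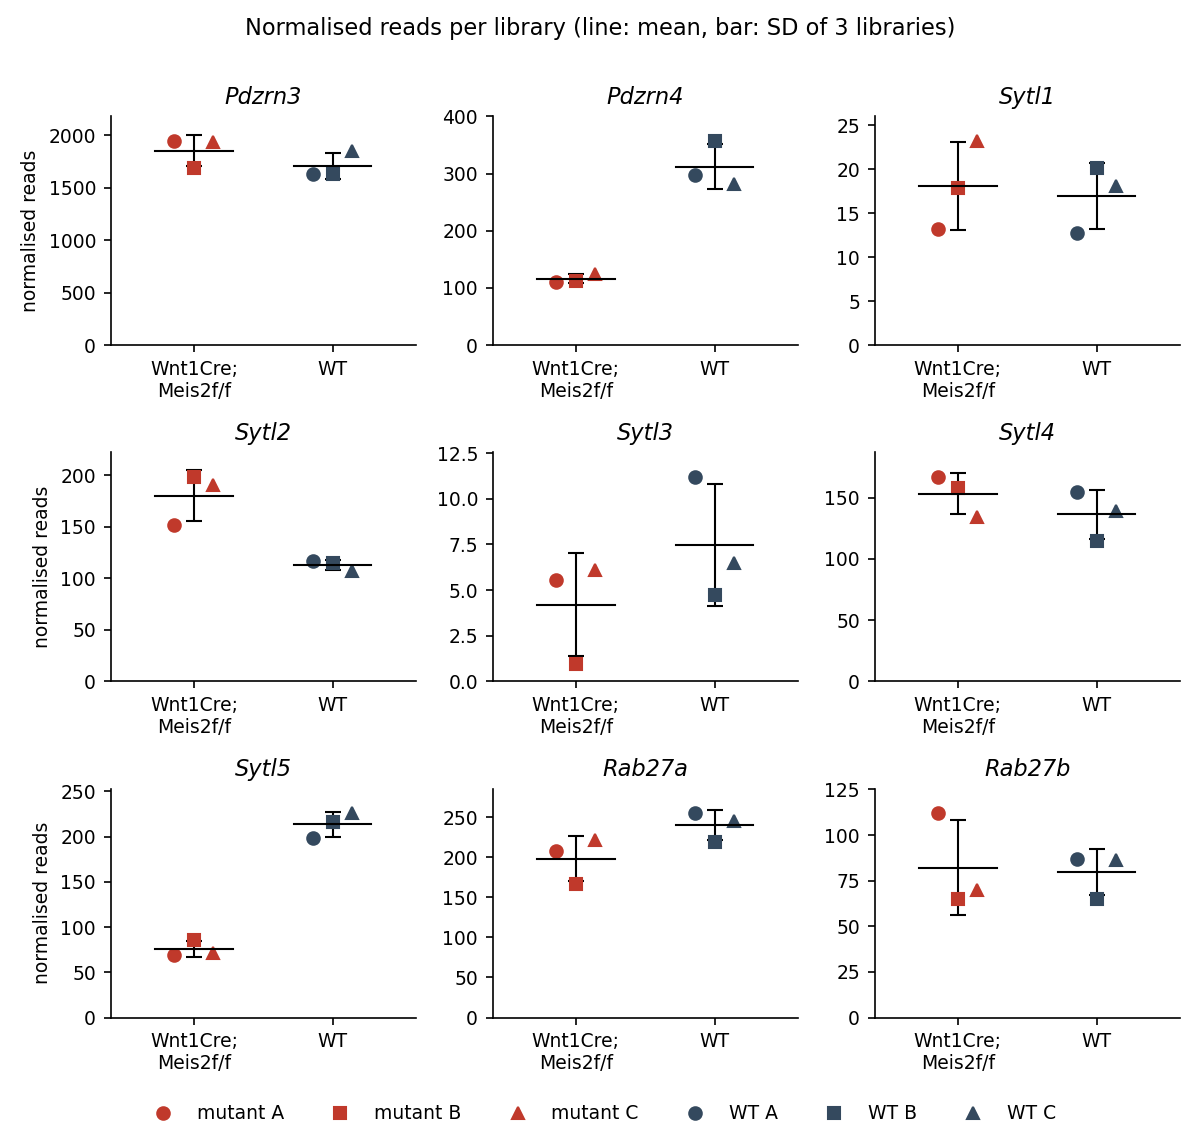
Normalised reads of the 9 genes in each library, Wnt1Cre;Meis2f/f on the left of each panel and WT on the right. Points are libraries, lines are means and bars are SDs of 3 libraries. All 3 mutant libraries lie below all 3 WT libraries for Pdzrn4 and Sytl5 and above them for Sytl2, and the genotypes overlap in the other 6 panels.

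Pdzrn4 spans 374.939 kb of chromosome 15 (chr15:92396881-92771819, plus strand, GRCm38) and shares no exonic base with another annotated gene. It had 110.6, 112.0 and 124.7 normalised reads in mutant A, B and C, against 298.0, 357.2 and 281.5 in WT A, B and C. The highest mutant library stood 2.26 times below the lowest WT library. The mean was 115.8 ± 7.8 in the mutant and 312.2 ± 39.8 in WT (SD, n = 3 each), so that the mutant held 37.1% of the WT level. The spread between libraries was small in both genotypes, with a coefficient of variation of 6.74% in the mutant and 12.7% in WT. The authors' deposited table of 6 libraries gave Pdzrn4 a log2 fold change of -1.10 (SE 0.127), and that of 4 libraries gave -0.83 (SE 0.138). These deposited values are drawn toward 0, and the ratio of mean reads gave a log2 value of -1.43 over 6 libraries and -1.30 without mutant B and WT B. By deposited fold change Pdzrn4 took rank 4 of the 173 genes called lower.

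Pdzrn3, on chromosome 6 (chr6:101149609-101377897, minus strand), was by far the more abundant of the pair. It had 1946, 1682 and 1931 normalised reads in mutant A, B and C, against 1632, 1633 and 1853 in WT A, B and C. The genotypes overlapped, with mutant B below WT C. The mean was 1853 ± 148 in the mutant and 1706 ± 127 in WT (SD, n = 3 each). The deposited log2 fold change of 0.11 (SE 0.094) did not pass. Its adjusted p was 0.797 over 6 libraries and 0.746 over 4 in the authors' deposited tables. Levels of different genes were compared as normalised reads per kb of the longest annotated transcript, 4.104 kb for Pdzrn3 and 3.376 kb for Pdzrn4. On that scale Pdzrn4 made up 7.08 ± 0.54% of the Pdzrn3 and Pdzrn4 sum in the mutant and 18.3 ± 2.7% in WT (SD, n = 3 each). Pdzrn4 was picked for its fall, so its lower share restates that choice. The sum itself overlapped between the genotypes, at 507, 443 and 507 reads per kb in mutant A, B and C, against 486, 504 and 535 in WT A, B and C.

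Sytl5 lies on the X chromosome (chrX:9885622-9994543, plus strand) and shares no exonic base with another annotated gene. It had 69.6, 85.6 and 70.9 normalised reads in mutant A, B and C, against 199.0, 216.4 and 225.9 in WT A, B and C. The mutant and WT libraries formed 2 groups far apart, the highest mutant library 2.32 times below the lowest WT library. The mean was 75.4 ± 8.9 in the mutant and 213.8 ± 13.7 in WT (SD, n = 3 each), so that the mutant held 35.3% of the WT level. The deposited log2 fold change was -1.08 (SE 0.134) in the authors' deposited table of 6 libraries, rank 5 of the 173 genes called lower, and -0.87 (SE 0.143) in that of 4. From mean reads the log2 ratio was -1.50 over 6 libraries and -1.60 over 4.

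Sytl2 encodes a Slp that links Rab27 vesicles to membranes in several secretory cell types, and it moved the other way. It lies on chromosome 7 (chr7:90302252-90410719, plus strand). It had 152.3, 198.5 and 190.8 normalised reads in mutant A, B and C, against 116.7, 114.7 and 107.2 in WT A, B and C. The lowest mutant library, A, stood 1.31 times above the highest WT library, and the 3 WT libraries lay close together. The mean was 180.5 ± 24.7 in the mutant and 112.8 ± 5.0 in WT (SD, n = 3 each), so that the mutant stood at 160.0% of the WT level. In the authors' deposited table of 6 libraries Sytl2 rose by a log2 fold change of 0.48 (SE 0.135) with an adjusted p of 0.0152, rank 172 of the 261 genes called higher. The authors' deposited table of 4 libraries gave 0.34 (SE 0.143), and at an adjusted p of 0.295 the call was lost, while the ratio of mean reads moved little, from a log2 value of 0.68 over 6 libraries to 0.62 over 4. The limma test gave 0.66 with an adjusted p of 0.0328. Leaving out WT A, mutant B, mutant C or WT C ended that call, at adjusted p values of 0.117, 0.0969, 0.116 and 0.112 in limma.

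The other 3 Sytl genes were not called. Sytl4, whose protein granuphilin docks insulin granules in pancreatic beta cells, is the other Sytl gene on the X chromosome (chrX:133936385-133981812, minus strand). It had 166.9, 158.1 and 134.5 normalised reads in mutant A, B and C, against 155.0, 114.7 and 139.4 in WT A, B and C. The genotypes overlapped, and the authors' deposited table of 6 libraries gave a log2 fold change of 0.12 with an SE of 0.136 and an adjusted p of 0.868. Sytl1, on chromosome 4 (chr4:133253090-133263113, minus strand), was weakly expressed, with 13.2, 17.9 and 23.2 normalised reads in mutant A, B and C, against 12.8, 20.1 and 18.1 in WT A, B and C. The authors' deposited table of 6 libraries gave it a log2 fold change of 0.02 with an SE of 0.136 and an adjusted p of 0.976. With 57 reads in the mutant and 47 in WT, the ratio of mutant to WT was 1.05 with an exact 95% interval of 0.701 to 1.58, which covers counting error only. Sytl3, on chromosome 17 (chr17:6659093-6738044, plus strand), was at the limit of detection, with 8, 1 and 5 whole reads in mutant A, B and C, against 14, 4 and 5 in WT A, B and C. The ratio of mutant to WT was 0.527 with an exact 95% interval of 0.251 to 1.07, also for counting error only, so that both a lower and an equal level lie within it at this depth. Sytl3 also shares 4 exonic bases with Ezr on the opposite strand.

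**Figure D2:**
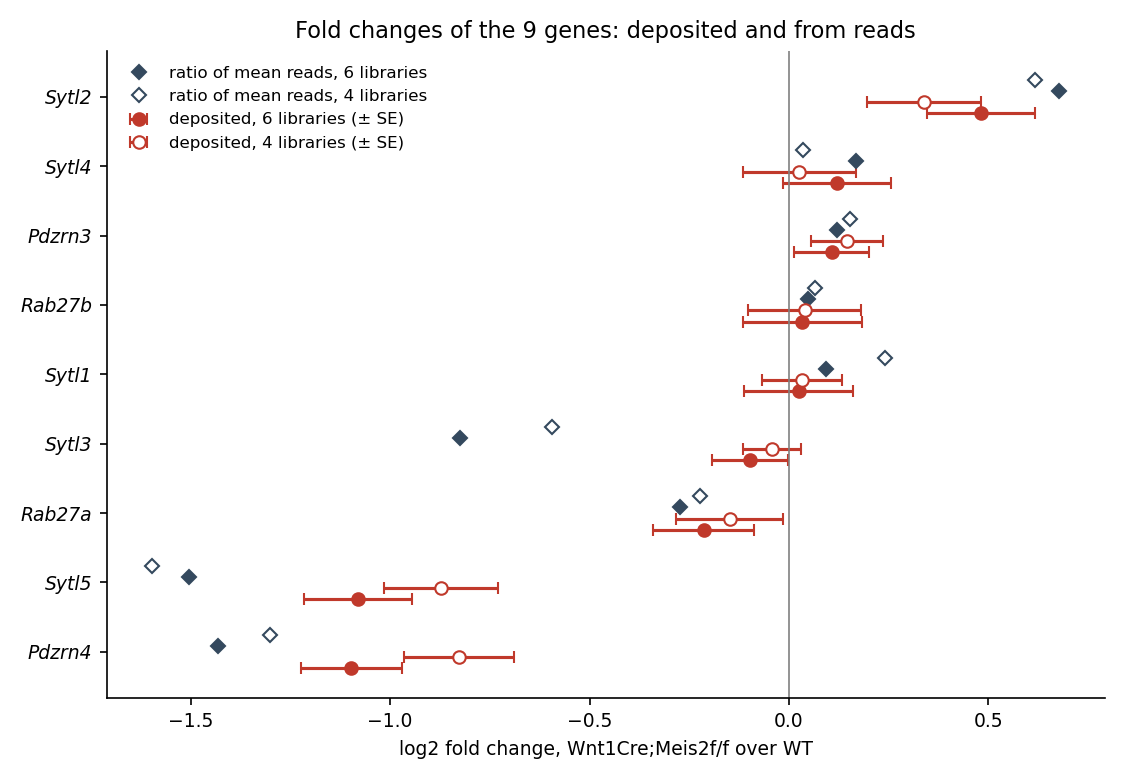
Log2 fold change of the 9 genes, Wnt1Cre;Meis2f/f over WT, as deposited (circles, bars are SE) and as the ratio of mean normalised reads (diamonds), with 6 libraries (filled) and with 4 libraries (open). The deposited values of Pdzrn4, Sytl5 and Sytl2 lie nearer to 0 than their read ratios, and Sytl3, with few reads, is drawn in furthest, from a read ratio of -0.83 to a deposited -0.10.

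The make-up of the Sytl transcripts differed between the genotypes. Sytl5 made up 26.3 ± 1.5% of the summed Sytl reads per kb of longest transcript in the mutant and 56.3 ± 3.2% in WT (SD, n = 3 each). Sytl2 made up 33.4 ± 3.1% in the mutant and 15.7 ± 1.1% in WT. Sytl4 made up 33.0 ± 4.4% in the mutant and 22.0 ± 3.1% in WT. The mutant and WT libraries did not overlap in any of these 3 shares, which were not tested. In all 3 WT libraries Sytl5 held the largest share, while Sytl4 did in mutant A and Sytl2 in mutant B and mutant C. Sytl5 was picked for its fall, so its lower share restates that choice. These are shares of a sum in which Sytl5 is large in WT, so the share of a gene can differ where its level does not. That holds for Sytl4, whose levels overlapped between the genotypes. On this scale the summed level was lower in the mutant, at 117, 133 and 122 normalised reads per kb in mutant A, B and C, against 164, 161 and 170 in WT A, B and C. The lengths matter for the order: Sytl5 is annotated with 2.301 kb of exons of which 42 bases are noncoding, while the exons of Sytl2 together span 13.941 kb against 4.348 kb in its longest transcript. With the summed exons as length, Sytl5 made up 39.1 ± 2.1% in the mutant and 68.4 ± 2.7% in WT, and Sytl2 15.5 ± 1.6% in the mutant and 5.97 ± 0.47% in WT. On that scale Sytl5 also led in mutant B and mutant C. The sums were then 80.1, 89.6 and 81.2 normalised reads per kb in mutant A, B and C, against 132.4, 133.6 and 141.5 in WT A, B and C. Without any length, Sytl5 made up 17.4 ± 1.0% of the summed Sytl normalised reads in the mutant and 43.9 ± 3.2% in WT. Sytl2 then made up 41.8 ± 3.9% and Sytl4 35.6 ± 4.8% in the mutant. Sytl5 lay below both in every mutant library and still led in every WT library. The sums without length were 408, 461 and 426 normalised reads in mutant A, B and C, against 495, 471 and 497 in WT A, B and C. Mutant B then lay near WT B, so the size of the difference in the sum depends on the length used.

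**Figure D3:**
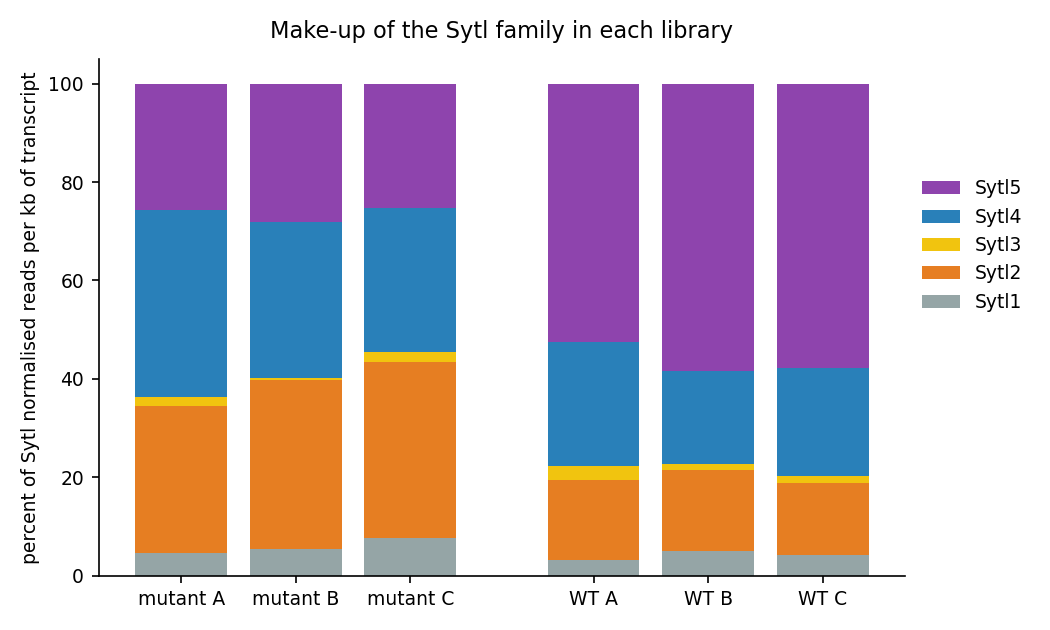
Share of each Sytl gene in the summed Sytl normalised reads per kb of longest transcript, as a percent, in the 3 mutant libraries on the left and the 3 WT libraries on the right. Sytl5 takes 25.2% to 28.1% in the mutant libraries and 52.6% to 58.4% in the WT libraries.

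The Rab27 genes did not pass the test. Rab27a, on chromosome 9 (chr9:73044854-73097629, plus strand), is the form needed for melanosome transport and for granule release in lymphocytes. It had 207.3, 166.5 and 221.3 normalised reads in mutant A, B and C, against 254.9, 218.8 and 245.3 in WT A, B and C. Only mutant C reached the WT range, just above WT B. The mean was 198.4 ± 28.5 in the mutant and 239.7 ± 18.7 in WT (SD, n = 3 each), and the authors' deposited table of 6 libraries gave a log2 fold change of -0.21 with an SE of 0.127 and an adjusted p of 0.606. Rab27a shares 149 exonic bases with Gm27186 on the same strand, where reads of the 2 genes cannot be told apart. Rab27b, on chromosome 18 (chr18:69979131-70141605, minus strand), acts beside Rab27a in platelets and secretory cells. It had 112.0, 64.9 and 69.7 normalised reads in mutant A, B and C, against 87.1, 65.0 and 86.5 in WT A, B and C. Mutant A stood apart from the other 2 mutant libraries, and the authors' deposited table of 6 libraries gave a log2 fold change of 0.03 with an SE of 0.149 and an adjusted p of 0.970. In limma the log2 fold change of Rab27b changed sign to -0.23 without mutant A and to -0.12 without WT B.

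Per kb of longest transcript, the order of WT levels was Pdzrn3 (415.7 ± 31.0), Sytl5 (92.9 ± 6.0), Pdzrn4 (92.5 ± 11.8), Rab27a (75.7 ± 5.9), Sytl4 (36.3 ± 5.4), Sytl2 (26.0 ± 1.2), Rab27b (11.5 ± 1.8), Sytl1 (6.84 ± 1.52) and Sytl3 (3.08 ± 1.38), each as mean ± SD of 3 libraries. Sytl5 and Pdzrn4 did not differ beyond their spread, and the other neighbours did by more than the larger of their SDs. In the mutant Pdzrn3 (451.5 ± 36.1) and Rab27a (62.6 ± 9.0) led. Sytl2 (41.5 ± 5.7), Sytl4 (40.8 ± 4.5), Pdzrn4 (34.3 ± 2.3) and Sytl5 (32.8 ± 3.9) followed, with Sytl2 and Sytl4 within their spread of each other and Pdzrn4 and Sytl5 likewise. With the summed exons as length, Sytl5 moved to rank 3 of the 9 in the mutant and Sytl2 to rank 6, so these places depend on the annotation.

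The genes whose fold changes were nearest to those of Pdzrn4 and Sytl5 in the pair of deposited tables were taken by Euclidean distance over 2 values per gene, among genes whose base mean reached 10 or more. The tables share 4 libraries, so these are not separate measurements. The nearest gene to Pdzrn4 was Sytl5 and the nearest to Sytl5 was Pdzrn4, at a distance of 0.0473 on the log2 scale, which restates the choice of the 9 genes, since both were picked for a strong fall in these same values. Cpm, a carboxypeptidase bound to the cell membrane, and Aldh1a2, which makes retinoic acid from retinal, were the other 2 for both. Cpm had 306.8, 294.5 and 319.2 normalised reads in mutant A, B and C, against 747.1, 761.7 and 604.2 in WT A, B and C. Aldh1a2 had 323.4, 288.8 and 307.0 normalised reads in mutant A, B and C, against 668.8, 702.5 and 782.4 in WT A, B and C. The genotypes did not overlap for either gene, which were picked by their fold changes over these libraries, so that this is no separate support.

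Genes that work with the 9 or are related to them were listed in 11 groups, 95 genes in all. Of these, 84 had a base mean of at least 10. Of these 84, 2 were called lower and none higher in the authors' deposited table of 6 libraries, against the 1.16% and 1.75% of all genes given above. Without adjustment, 6 lower and 11 higher had a p under 0.05 in that deposited table, where 5.21% of 14576 genes with that base mean and a p were lower and 5.46% higher at the same threshold, 10.7% in all, and limma on the recovered reads called 2 of 77. Their median log2 fold change was 0.04, beside -0.01 over all 14580 genes with that base mean. The genes called were Wnt11 and Syt9.

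Among the 19 planar cell polarity genes, which include the dishevelled genes through which Pdzrn3 acts, Wnt11 was called lower. Wnt11, a noncanonical Wnt ligand, had 241.4, 266.2 and 264.1 normalised reads in mutant A, B and C, against 379.5, 406.9 and 373.1 in WT A, B and C. Every mutant library lay below every WT library. The authors' deposited table of 6 libraries gave a log2 fold change of -0.49 with an SE of 0.112 and an adjusted p of 0.000864, and that of 4 gave an adjusted p of 0.0487. In limma Wnt11 had an adjusted p of 0.0113 with all libraries, and the call ended without mutant A (0.0713) or WT A (0.0657). The other 18 were not called, and the list ran from -0.49 to 0.19 with a median of 0.03. The 2 Lnx genes, the nearest relatives of Pdzrn3 and Pdzrn4 by domains, had values of -0.07 and 0.01 in the authors' deposited table. All 8 measured genes of the MuSK synapse list had fold changes above 0, as did 46% of the 14576 genes, with a median of 0.28 and a range of 0.15 to 0.43 in the authors' deposited table of 6 libraries. None of the 8 was called, 5 had an unadjusted p under 0.05, all higher, against the 5.46% of all genes given above, and limma called 0 of the 6 it tested. The muscle markers given below stood higher in the mutant libraries, and their part in the values of this list was not tested.

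The synaptotagmins include calcium sensors of vesicle fusion, and the Sytl proteins are related to them by their C2 domains. Among the 12 measured of 17 synaptotagmins, Syt9 was called lower. Syt9 had 48.7, 43.3 and 57.5 normalised reads in mutant A, B and C, against 107.9, 78.1 and 89.1 in WT A, B and C. The genotypes did not overlap. The authors' deposited table of 6 libraries gave a log2 fold change of -0.53 with an SE of 0.148 and an adjusted p of 0.0162. At an adjusted p of 0.192 the call was lost in that of 4. In limma the adjusted p was 0.0364 with all libraries, and the call ended without mutant A (0.136), mutant B (0.0914), WT A (0.221) or WT C (0.107). The list's median was 0.05, with 10 of 12 above 0.

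No gene of the 7 remaining lists was called, and limma called none of them either. Unadjusted p-values under 0.05 in the authors' deposited table came to 1 of the 4 Rab3 genes (lower), 2 of the Rims and Munc13 genes (both higher) and 2 of the 4 myosins (1 in each direction), beside 10.7% of all genes. The medians and ranges that follow are log2 fold changes over 6 libraries in the authors' deposited table. Of 6 other Rab27 effectors, which include melanophilin and Munc13-4, 3 were measured, with a median of 0.09 and a range of 0.08 to 0.20. The 6 Rab27 regulators, which load Rab27 with GTP, turn it off or escort it for prenylation, had a median of 0.01 and a range of -0.18 to 0.14. The 4 Rab3 genes, GTPases that also act in regulated secretion, all lay below 0 with a median of -0.11. The Rims and Munc13 genes, which prime vesicles, had a median of 0.13 over 6 measured, up to 0.47, and the 4 myosins a median of 0.03 from -0.31 to 0.38. The secretory SNARE and Munc18 genes, which fuse vesicles, had a median of -0.03 over 14 measured and a range of -0.19 to 0.19. The other tandem C2 genes had a median of 0.03 over 6, up to 0.17.

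**Figure D4:**
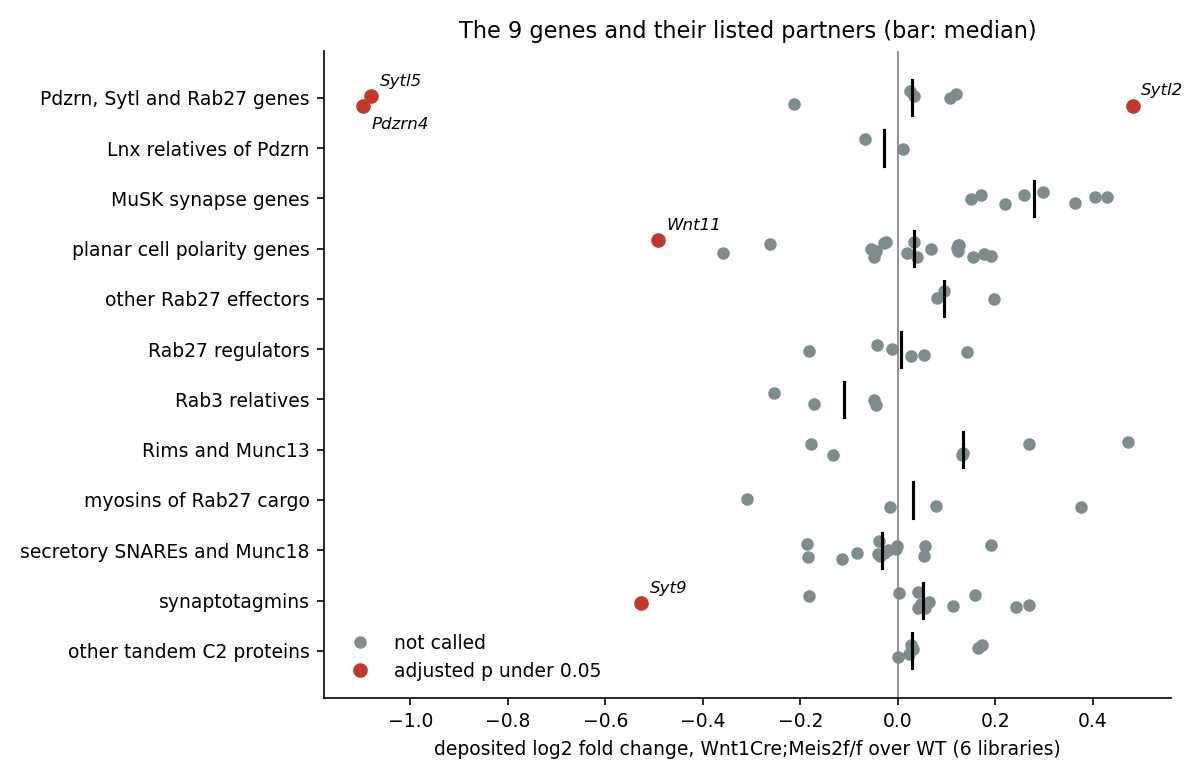
Deposited log2 fold change of the 8 measured Pdzrn, Sytl and Rab27 genes (top row) and of the listed genes that work with them or are related to them, Wnt1Cre;Meis2f/f over WT, 6 libraries. Each point is a gene whose base mean reached 10 or more, black bars are list medians, and red points passed an adjusted p of 0.05. Pdzrn4 and Sytl5, picked on these values, lie at about -1.1, and the listed genes run from -0.53 to 0.47.

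Bulk RNA does not show which cells held these transcripts, and fewer cells of a type and less RNA per cell cannot be told apart. Markers of other cells moved with the genotype. The counts of called markers stand beside 1.16% of all genes called lower and 1.75% called higher over 6 libraries. Of the 4 neuron markers measured, of 6 listed, 3 were called lower, and the list summed to 284 to 335 normalised reads in the mutant and 458 to 795 in WT, highest in WT B. Of the 7 muscle markers, 6 were called higher, with sums of 1025 to 2630 in the mutant, highest in mutant C, and 454 to 596 in WT for the 6 of 7 with recovered reads. Acta1, the marker not called, had 101, 135 and 880 normalised reads in mutant A, B and C, against 28.8, 54.4 and 52.9 in WT A, B and C. Of the 5 macrophage markers, 3 were called higher, with sums of 873 to 993 in the mutant and 536 to 659 in WT. Blood and mast cell markers summed to 800 to 971 in the mutant and 543 to 647 in WT. Of 4 measured, 1 was called higher, Kit, which made up most of these sums. Kit had 608, 729 and 618 normalised reads in mutant A, B and C, against 383, 457 and 378 in WT A, B and C. The other 3 measured, Ptprc, Pf4 and Itga2b, were not called, so the sums mainly follow Kit. Melanocyte markers, of interest for Rab27a, summed to 77.2 to 99.1 in the mutant and 64.6 to 87.9 in WT. Only 1 of the 6 was measured, Mitf, with a base mean of 68.7, which made up most of the sum and was not called. Dct, Tyrp1, Tyr, Pmel and Mlana had base means of 0.55 to 8.11, so the list cannot show whether melanocyte transcripts differed. Glial markers summed to 618 to 712 in the mutant and 617 to 876 in WT, with none of the 4 measured called. Endothelial and epithelial marker sums overlapped, with none called, at 2573 to 3099 and 789 to 1043 in the mutant, against 2479 to 2969 and 713 to 1122 in WT. The palate mesenchyme markers ranged widely in level in the authors' deposited table. Base means were 16535 for Pdgfra, 10660 for Prrx1, 1636 for Twist1, 580 for Osr2 and 103 for Msx1. Of the 5, 2 were called lower, Prrx1 and Twist1. The authors' deposited table of 4 libraries called fewer neuron (1), muscle (2) and macrophage (2) markers. It called as many blood and mast cell markers (1) and more palate mesenchyme markers (3), beside 0.99% of all genes called lower and 1.31% called higher. Of these 3, Prrx1 and Twist1 were again lower, while Pdgfra was higher in the mutant, at 0.23 on the log2 scale. For Pdgfra the authors' DESeq2 test on 4 libraries put the adjusted p at 0.0473. No marker was listed at 0, and the part of these shifts in the values of Pdzrn4, Sytl5, Sytl2, Wnt11, Syt9 and the MuSK list was not tested.

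Sytl4 and Sytl5 are X-linked, and the sex of the embryos is not given in the labels. The Y-linked gene Eif2s3y, looked up after the other values were seen, had 816, 835 and 665 normalised reads in mutant A, B and C, against 570, 774 and 474 in WT A, B and C. Kdm5d, also Y-linked, had 1132, 1063 and 944 in mutant A, B and C, against 679, 949 and 608 in WT A, B and C. Xist, which is expressed from the inactive X chromosome of females, had a base mean of 26796 in the authors' deposited table, with no reads per library recovered. The Y-linked genes were read in all 6 libraries, and the part of sex in the values of Sytl4 and Sytl5 was not tested.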

How the data were processed

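The 9 genes and the lists were chosen with earlier results of these data known. RNA-seq of 3 mutant and 3 WT libraries was aligned and counted with HISAT2 and featureCounts on GRCm38/mm10 and compared with DESeq2, per the submitters' processing notes. The sources used here give no versions or settings and do not say if strand was used in counting, so reads of overlapping genes cannot be told apart. The base mean deposited by the authors is a signal, the mean of reads divided by size factors. The fold change and its SE were deposited on the log2 scale and are drawn toward 0. The Wald statistic is a score, as deposited by the authors. The p-values, plain and adjusted, are those of the authors' DESeq2 test, as deposited. The 6-library table is used throughout, and a table of 4 of these libraries as an alternative. The other deposited table, a shorter one, was not used here. The series' design text describes the tables as single pairs of libraries, which does not match these values.

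Size factors (0.775 to 1.44) were read from genes with a single read, and the base means were then solved for whole reads per library, up to a base mean of 2000 with 4 libraries. Of 20970 genes with reads, 18301 had a single solution for the 4 libraries. For the others the solution with libraries most alike was kept where it was the only one within a relative deviation of 1, and each of the 9 genes had a single solution over all 6 libraries. The search and the fit below were tested on simulated data. Sign of the mean difference and of the deposited fold change matched in 99.0% of 12461 genes. As an alternative chosen after seeing the data, limma 3.58.1 (R 4.3.3) was run on log2(normalised reads + 1) over these 12461 genes with Benjamini-Hochberg adjustment. Named genes were the 9 genes, list genes called, Meis2 and the 3 nearest genes of Pdzrn4 and of Sytl5. Gene spans and lengths came from GENCODE on GRCm38, promoters from RefSeq.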

Additional observations from a re-analysis of the deposited data

How the results depend on the processing

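Between 2 and 3 of the 9 genes were called in every setting tried, Pdzrn4 and Sytl5 in all of them, with log2 fold changes of -1.49 to -1.32 and -1.59 to -1.44 when 1 library was left out in limma. Both were picked for their fall in these same libraries, so these calls are no separate support. Sytl2 kept its direction, at 0.59 to 0.78 with 1 library left out and 0.34 in the authors' deposited table of 4 libraries, and lost its call in 5 of 12 alternatives. The 2 calls among the listed genes became 1 with 4 libraries and 1 with genes of base mean of at least 100. They became 4 with the median of all genes subtracted and 4 at an adjusted p under 0.1, in both cases 2 lower and 2 higher. No share of all genes called is given for these settings or for base mean of at least 100. The counts can therefore not be set beside such a share. Leaving out 1 library in limma gave 0 to 4. Without mutant A or WT A it was 0, without mutant B or WT C 1, and without WT B 4. Of all 12461 genes tested, limma called 194 without mutant A, 281 without mutant B, 211 without mutant C, 130 without WT A, 382 without WT B and 193 without WT C, against 321 with all libraries. Values near 0 changed sign: Rab27b to -0.23 without mutant A and -0.12 without WT B, and Sytl1 to -0.10 without WT A and -0.11 without mutant C. Sytl4, not called, ran from 0.05 without WT B to 0.27 without WT A. The cause was not tested. No paired analysis was possible because the recovered libraries carry no replicate number. Depth limits Sytl1 and Sytl3 most, with 104 and 37 reads over 6 libraries.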
